A study of Mus musculus with 12 samples.

Results

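The leukocyte immunoglobulin-like and paired receptors described here were Lilra5, Lilra6, Lilrb4a, Lilr4b, Pirb and Pilra, taken by gene symbol from a table of 55401 genes. All 6 genes were in the table, and all 6 passed the filter on low values (3 or more libraries with 1 TPM or above), as did 15504 genes in all. TPM is the level per transcript length, scaled so that each library adds up to 1000000. The libraries came from bulk RNA of orthotopic tumors of 4T1, a mouse mammary carcinoma line, grown in Balb/c mice.

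The study asked how interleukin-10 (IL-10) carried by an antibody to CSF1R, the receptor of colony stimulating factor 1, acts beside its parts, and 4 groups of 3 tumors were sequenced, 1 library per tumor. The control group received an isotype control, IgG1-Fc by the sample labels and control IgG by the study's methods. The IL-10-Fc group received a fusion of IL-10 with an antibody Fc domain. The aCSF1R group received the antibody that blocks CSF1R, through which macrophages receive their survival signal. The BF10 group received that same antibody with human IL-10 joined to its heavy chains. Doses were set to be equivalent by molecular weight, were given into the peritoneum and began at a tumor volume of 100 mm3. The sample labels give 6 doses and the description of the series 4, so their number is uncertain. Replicate numbers are those of the sample titles and mark no known pairing. The tumors hold cancer cells, stroma and leukocytes together, so fewer cells of a type and less RNA per cell cannot be told apart in any level given below.

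These receptors sit on the surface of myeloid cells and come in pairs whose outer, immunoglobulin-like domains are alike while their tails act in opposite directions. Inhibitory members such as Pirb, Lilrb4a and Pilra carry tyrosine motifs that recruit the phosphatases SHP-1 and SHP-2 (Ptpn6 and Ptpn11). Activating members have short tails and signal through adaptor proteins, the Fc receptor gamma chain (Fcer1g) for the PIR-A type and DAP12 (Tyrobp) for the Pilrb receptors. Pirb binds MHC class I molecules and acts in macrophages, neutrophils and B cells as a brake on activation.

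The libraries differed in ways that the groups do not explain. The sum of the deposited FPKM values was 782919 to 921581 in 5 libraries, called the higher-sum set here, and 609695 to 648413 in the other 7, the lower-sum set. The higher-sum set held control replicates 4 and 7, IL-10-Fc replicate 7, aCSF1R replicate 8 and BF10 replicate 6, and mitochondrial genes took 5.90 to 9.26% of their total against 3.14 to 3.96% in the lower-sum set. An estimate of depth from the steps between low values gave 30500000 to 36100000 reads per library. The search covered only a preset range of depths, so these numbers and the read numbers given below are approximate. In the aCSF1R libraries the summed TPM of 12 macrophage markers was 85.0 to 274, against 1813 to 2303 in control, 1510 to 1722 in IL-10-Fc and 1813 to 1865 in BF10. BF10 replicate 3 had a summed neutrophil marker TPM of 19293, and no other library exceeded 4045 (the granulocyte gene Ly6g stood at 74.8 TPM there and at 5.04 or less elsewhere). Epithelial markers of the tumor were present in every library, with a summed TPM of 676 to 2330.

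Pilra, the inhibitory receptor of the PILR pair (chr5:137821952-137836281 in GRCm38, minus strand), was the member with the clearest difference between groups. Its level in control was 26.7, 21.2 and 25.1 TPM in replicates 4, 5 and 7, and in IL-10-Fc it was 21.5, 22.0 and 30.0 TPM in replicates 2, 4 and 7. In aCSF1R it was 3.50, 2.85 and 4.55 TPM in replicates 4, 6 and 8, and in BF10 42.3, 22.6 and 25.2 TPM in replicates 3, 6 and 7. Every aCSF1R library was thus below every other library, and the other 3 groups overlapped. The means (± SD, n = 3) were 3.63 ± 0.855 TPM for aCSF1R, 24.3 ± 2.82 for control, 24.5 ± 4.74 for IL-10-Fc and 30.1 ± 10.7 for BF10.

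**Figure D1:**
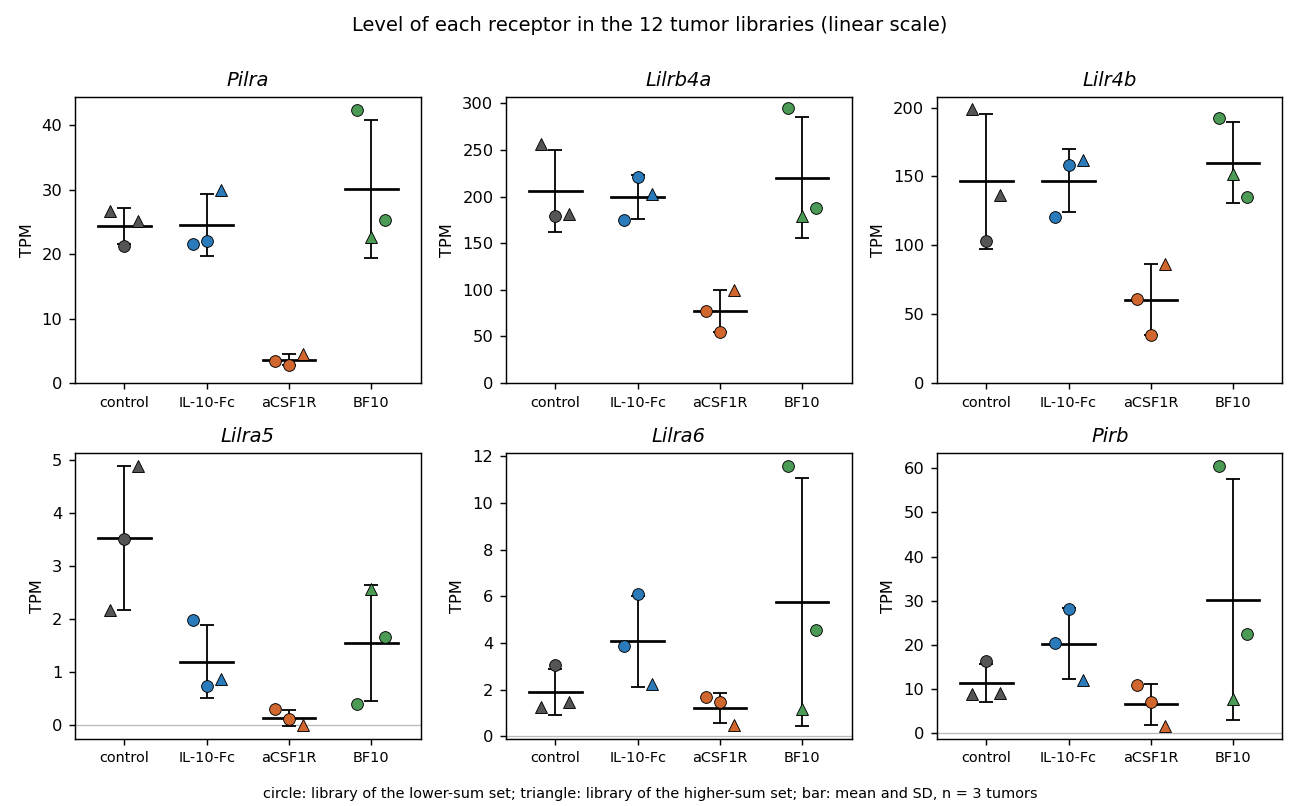
TPM of the 6 receptors (vertical axis, linear) in each of the 12 tumor libraries by treatment group, with the group mean and SD over 3 tumors. Circles are libraries of the lower-sum set and triangles of the higher-sum set. The aCSF1R libraries lie below all others for Pilra, Lilrb4a, Lilr4b and Lilra5, while for Lilra6 and Pirb they overlap control and BF10 replicate 3 stands highest.

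Compared with control, Pilra fell by 2.46 on the log2(TPM + 1) scale in aCSF1R tumors (SE 0.29, 95% confidence interval -3.11 to -1.81, adjusted p = 0.002587), and the ratio of the mean TPM values was 6.70-fold. A gene was called where it differed by 1.5-fold or more with a p below 0.05 after Benjamini-Hochberg adjustment over the 15504 genes, in a limma fit of all 12 libraries. By that rule 1 of the 6 receptors was called lower in aCSF1R against control, where 0.568% of all tested genes were called lower and 0% higher. With a term for the library set 3 of the 6 were called lower (Pilra, Lilrb4a and Lilra5), against 1.93% of all tested genes. Pilra was also higher in IL-10-Fc than in aCSF1R (log2 difference 2.46, SE 0.29, adjusted p = 0.004015) and in BF10 than in aCSF1R (2.71, SE 0.29, adjusted p = 0.001714). These 3 comparisons share the aCSF1R libraries and are not independent. All 3 calls remained in each of the 12 fits that left out 1 library and with a term for the library set, and none was made when only the 2 groups compared entered the fit (adjusted p = 0.1497, 0.07483 and 0.1296 in the same order). With the median-of-ratios scaling the call in IL-10-Fc against aCSF1R was lost (2.23, adjusted p = 0.1052).

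Pilra did not differ detectably between the 3 groups outside aCSF1R. The log2 difference was -0.0002 in IL-10-Fc against control (95% confidence interval -0.65 to 0.65), 0.25 in BF10 against control (-0.40 to 0.89) and 0.25 in BF10 against IL-10-Fc (-0.40 to 0.89). The median of all tested genes was 0.35, 0.32 and -0.05 in the same order. Both differences from control thus lay below the general shift on this scale. Over 9 alternatives the Pilra difference ranged from -0.43 to 0.05 in IL-10-Fc against control and from -0.12 to 0.30 in BF10 against control.

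A further contrast subtracted the means of IL-10-Fc and of aCSF1R from that of BF10 and added the mean of control, which gives 0 on the log2 scale where the change in BF10 equals the sum of the changes under its parts. For Pilra it was 2.71 (SE 0.42, adjusted p = 0.03008), and 1 of the 6 receptors was called, against 0.284% of all tested genes called above 0. This call was lost in 10 of the 12 fits that left out 1 library, with adjusted p up to 0.1279, and with a median-of-ratios scaling (adjusted p = 0.1628). Over the 12 fits its value stayed between 2.44 and 2.88.

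The activating partners of Pilra lie beside it on the minus strand of chromosome 5, with 15865 bases between Pilra and Pilrb1. Pilrb1 had 20.8 to 23.5 TPM in control and 9.04 to 18.5 TPM in aCSF1R, and Pilrb2 had 18.3 to 20.9 and 7.15 to 9.45 TPM. Neither range in aCSF1R overlapped that of control. The log2 differences were -0.87 (SE 0.29, adjusted p = 0.7004) for Pilrb1 and -1.19 (SE 0.25, adjusted p = 0.07632) for Pilrb2, and neither was called. With a term for the library set Pilrb2 was called (-1.13, adjusted p = 0.005992). Whether Pilra differed from its partners in the size of the change was not tested.

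The upstream sequence of Pilra is shown because it is nearly the same as that of Pilrb2, whose log2 difference was -1.19. Over the aligned stretch 195 of 196 bases were identical (99.49%), and with Pilrb1 192 of 196 (97.96%). The 250 bases before the RefSeq start of Pilra (GRCm38.p6, chr5:137836279-137836528, minus strand, 5′ to 3′) hold the letters GAGGAAG, a core that the myeloid factor PU.1 recognizes, shown in capitals at bases -211 to -205.
Pilra: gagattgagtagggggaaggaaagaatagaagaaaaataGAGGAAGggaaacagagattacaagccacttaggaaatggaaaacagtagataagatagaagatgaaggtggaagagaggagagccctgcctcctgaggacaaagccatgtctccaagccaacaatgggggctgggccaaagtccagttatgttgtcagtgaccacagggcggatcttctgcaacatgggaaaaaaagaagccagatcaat

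That motif lies outside the stretch aligned with Pilrb1 and Pilrb2. The 250 bases of these partners begin with the aligned stretch and do not reach the matching position, so whether they hold the motif there was not examined. Within their own 250 bases there was no match. The letters of the IRF family, a pair of GAAA with 2 bases of any kind between, matched at -178 to -169 in Pilra and at -232 to -223 in both partners, and they did not overlap the capitals.

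Lilrb4a and Lilr4b, which encode the gp49 receptors of myeloid and mast cells, were the most abundant members per length. Lilrb4a, the inhibitory form, had 257, 180 and 181 TPM in control replicates 4, 5 and 7 and 175, 221 and 203 TPM in IL-10-Fc replicates 2, 4 and 7. It had 76.9, 54.7 and 99.9 TPM in aCSF1R replicates 4, 6 and 8 and 295, 179 and 188 TPM in BF10 replicates 3, 6 and 7. The aCSF1R libraries were again the lowest, without overlap, and the other groups overlapped each other.

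The log2 difference of Lilrb4a was -1.43 in aCSF1R against control (SE 0.28, adjusted p = 0.06229), which was not called, and the ratio of the means was 2.67-fold. It was called with the term for the library set (-1.38, adjusted p = 0.01633) and in 2 of the 12 fits that left out 1 library. In all, 2 of 9 alternatives called it (adjusted p up to 0.4913), the other being sample weights. That fit did not fully converge and called 9898 of the 15504 tested genes, so its call says little of Lilrb4a. The alternative without a minimum fold keeps the adjusted p of 0.06229 and could not call it. In BF10 against aCSF1R it was called higher (1.51, SE 0.28, adjusted p = 0.03711), so that 2 of the 6 receptors were called higher there, against 0.735% of all tested genes. With the library set term 4 of the 6 were called, against 2.77%. This call rested on a narrow margin: it was made in 1 of the 12 fits that left out 1 library (adjusted p 0.02781 to 0.1728), and without BF10 replicate 3 the difference was 1.28 (adjusted p = 0.1722). In IL-10-Fc against aCSF1R the difference was 1.40 (SE 0.28, adjusted p = 0.06767), and 1 of the 6 receptors, Pilra, was called higher against 0.542% of all tested genes. With the library set term 3 were called there (Pilra, Lilrb4a at 1.40 and Lilr4b at 1.35), against 2.12%.

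Lilr4b, the gp49 form with a short tail, lies 4252 bases upstream of Lilrb4a on the plus strand of chromosome 10. Its values were 199, 103 and 137 TPM in control, 121, 158 and 162 TPM in IL-10-Fc, 60.9, 34.6 and 86.2 TPM in aCSF1R and 193, 152 and 135 TPM in BF10, in the order of replicates used above. The aCSF1R libraries did not overlap any other group. Its log2 difference in aCSF1R against control was -1.30 (SE 0.34, adjusted p = 0.2752) and was not called. In BF10 against aCSF1R it was 1.46 (SE 0.34, adjusted p = 0.132, and 0.01308 with the term for the library set).

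The neighbours Lilrb4a and Lilr4b kept a steady ratio. Lilrb4a was 1.16 to 1.74 times Lilr4b within the 12 libraries, and Pearson's r of their log2 levels was 0.97 over the 12 libraries, which share the group structure. Their sequences also overlap, since 19.58% of the 75-base windows of the Lilrb4a transcripts occur in Lilr4b. A further gene model, Gm49339, spans both and holds 89.59% of the Lilrb4a windows. Gm49339 was given 1.57 to 4.44 TPM in 10 libraries and was listed at 0 in control replicates 5 and 7, so it took a small share beside Lilrb4a, but the division of reads among the 3 models is uncertain.

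Lilra5, an activating receptor that signals through the Fc receptor gamma chain (chr7:4237754-4243463, plus strand), was the least abundant member on average and the only one whose highest mean was in control. It had 2.16, 3.51 and 4.89 TPM in control replicates 4, 5 and 7, 1.98, 0.725 and 0.868 TPM in IL-10-Fc replicates 2, 4 and 7, and 0.391, 2.57 and 1.66 TPM in BF10 replicates 3, 6 and 7. In aCSF1R replicates 4 and 6 it had 0.293 and 0.0984 TPM, and it was listed at 0 in replicate 8, where a count of 3 reads would stand for about 0.0514 TPM. These values correspond to about 12.9, 4.1 and 0 reads, against 130 to 302 reads in control. The aCSF1R libraries lay below every other library, and the IL-10-Fc libraries below every control library, as for 1.78% of all tested genes.

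The log2 difference of Lilra5 in aCSF1R against control was -1.96 (SE 0.38, adjusted p = 0.05379), just short of the threshold. It was called with the library set term (-1.94, adjusted p = 0.02109), with a pseudocount of 0.1 (-4.12, adjusted p = 0.03625), with FPKM left at their deposited scale (-1.78, adjusted p = 0.03694) and with the median-of-ratios scaling (-2.20, adjusted p = 0.0383). In all, 5 of 9 alternatives called it, the last being sample weights, whose fit called 9898 of all tested genes in this comparison. Adjusted p over the alternatives was up to 0.181 (only the 2 groups compared). Lilra5 was also called in 2 of the 12 fits that left out 1 library (adjusted p up to 0.2537). The scale with 1 added understates a change at this level, as the ratio of the mean TPM values was 27.0-fold. That ratio rests on few reads, and it was 71.6-fold without aCSF1R replicate 4 and 18.0-fold without aCSF1R replicate 8. In IL-10-Fc against control the difference was -1.04 (SE 0.38, 95% confidence interval -1.88 to -0.21, adjusted p = 0.7382) and in BF10 against control -0.89 (SE 0.38, -1.72 to -0.06, adjusted p = 0.7885). None of the windows of its transcript occurs in another gene, so its low values are not split with a paralog.

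Pirb and Lilra6 differed between the library sets as well as between groups. Pirb, the inhibitory PIR-B (chr7:3711409-3720391, minus strand), had 8.77, 16.4 and 9.08 TPM in control replicates 4, 5 and 7 and 20.5, 28.1 and 12.2 TPM in IL-10-Fc replicates 2, 4 and 7. It had 10.9, 7.09 and 1.71 TPM in aCSF1R replicates 4, 6 and 8 and 60.6, 7.66 and 22.5 TPM in BF10 replicates 3, 6 and 7. In each group the library of the higher-sum set, or both of them in control, had the lowest values. Within the lower-sum set the aCSF1R libraries had the lowest Pirb and so had the aCSF1R library within the higher-sum set, whereas over all 12 libraries aCSF1R and control overlapped.

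For Pirb the log2 difference in aCSF1R against control was -0.90 (SE 0.72, adjusted p = 0.8935), and with the library set term it was -1.38 (adjusted p = 0.1574). In BF10 against aCSF1R it was 1.86 (SE 0.72, adjusted p = 0.8607) and was called with the library set term (adjusted p = 0.02308), the 1 of 9 alternatives that called it. Without BF10 replicate 3 that difference was 1.16, and the excess of BF10 over IL-10-Fc, 0.20 with all libraries, turned to -0.50. BF10 replicate 3 is the library with the highest neutrophil markers, and their part in the Pirb level was not tested.

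Lilra6, an activating PIR-A type receptor (chr7:3908280-3915503, minus strand), had a pattern like that of Pirb at a lower level. Its values were 1.24, 3.05 and 1.45 TPM in control, 3.88, 6.09 and 2.22 TPM in IL-10-Fc, 1.69, 1.48 and 0.477 TPM in aCSF1R and 11.6, 1.18 and 4.53 TPM in BF10, in the same order of replicates. The groups overlapped except IL-10-Fc and aCSF1R. The log2 difference was -0.39 in aCSF1R against control (SE 0.58, adjusted p = 0.8935), 1.32 in BF10 against aCSF1R (SE 0.58, adjusted p = 1) and 1.17 in IL-10-Fc against aCSF1R (SE 0.58, adjusted p = 1), and none was called. Pirb was 3.59 to 7.05 times Lilra6 within the libraries, and r of their log2 levels was 0.97 over the 12 libraries.

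The upstream sequences of these 2 genes, which lie 187888 bases apart, are shown because the levels rose and fell together across libraries. Whether these sequences bear on the levels was not tested. Over 220 aligned bases 212 were identical (96.36%), against 65.9% between Pirb and Lilra5. Both hold GAGGAAG, in capitals, at -120 to -114 in Pirb (chr7:3720383-3720632, minus strand) and at -150 to -144 in Lilra6 (chr7:3915502-3915751, minus strand), within a shared stretch and 5′ to 3′ as above.
Pirb: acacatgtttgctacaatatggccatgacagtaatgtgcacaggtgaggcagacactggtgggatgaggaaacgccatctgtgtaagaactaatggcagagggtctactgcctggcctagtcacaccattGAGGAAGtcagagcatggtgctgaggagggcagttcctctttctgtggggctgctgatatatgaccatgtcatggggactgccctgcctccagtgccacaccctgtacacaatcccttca
Lilra6: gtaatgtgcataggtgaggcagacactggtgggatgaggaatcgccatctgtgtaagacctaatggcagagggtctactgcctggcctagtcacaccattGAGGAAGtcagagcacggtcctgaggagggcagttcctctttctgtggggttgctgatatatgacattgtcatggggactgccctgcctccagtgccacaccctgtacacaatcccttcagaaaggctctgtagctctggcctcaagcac

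RefSeq promoters were at hand for 5 of the 6 members, all but Lilrb4a, and both strands were searched. GAGGAAG occurred in 3 of them, Pirb, Lilra6 and Pilra, and in 10.61% of 32851 promoters of the same length. The palindromic STAT letters TTCNNNGAA occurred in Lilra5 at -107 to -99 and in Lilr4b at -104 to -96, and in 7.02% of all promoters. The IRF letters occurred in Pilra and in 2.98% of promoters. No match to the letters of AP-1 (TGANTCA), C/EBP (TTGNNNAAT) or RUNX (TGTGGTT) lay in these 5 windows.

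Pirb and Lilra6 belong to a cluster of near-copies on chromosome 7, so their levels are less certain than that of Pilra. Of the 75-base windows of the Pirb transcript 30.05% occur in another gene, and of those of Lilra6 16.98%, compared with 2.62% for Pilra and 18.46% for Lilr4b. The neighbours Pira2, Gm15448 and Gm14548, named for their position after their values were seen, had their highest level in BF10 replicate 3 as well, at 11.6, 5.94 and 27.5 TPM. None of the 3 was called in any comparison, and with the library set term Gm14548 was called higher in BF10 against aCSF1R (1.74, adjusted p = 0.03199).

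**Figure D2:**
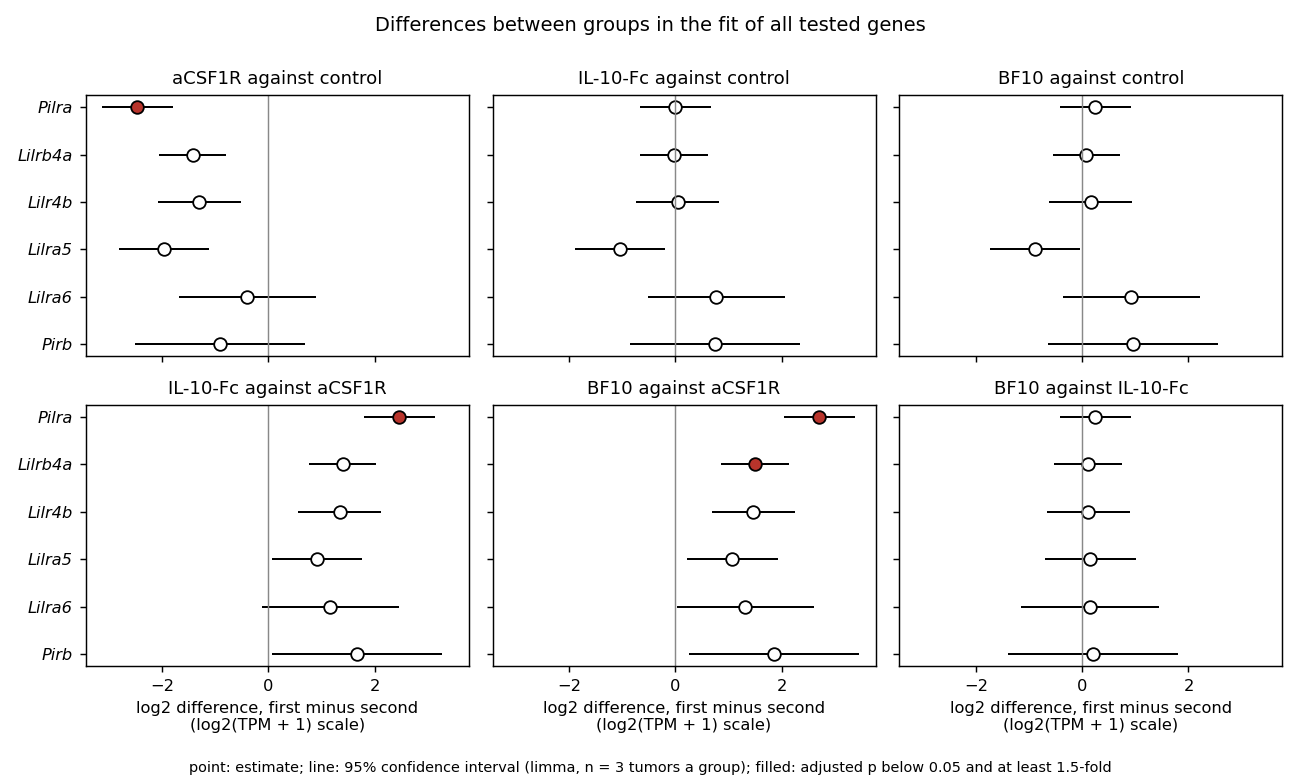
Log2 difference of the 6 receptors on the log2(TPM + 1) scale (horizontal axis) for 6 comparisons of groups, with 95% confidence intervals from the limma fit of all tested genes. Filled points passed an adjusted p of 0.05 and 1.5-fold. Pilra is filled in the 3 comparisons that involve aCSF1R, Lilrb4a in BF10 against aCSF1R, and no point is filled among control, IL-10-Fc and BF10.

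All 6 receptors had a negative log2 difference in aCSF1R against control, with a median of -1.36, while the median of all tested genes was 0.24 and 26.4% of them were below 0. For 4 of the 6 the groups were apart, with aCSF1R lower, as for 3.68% of the genes tested. In BF10 against aCSF1R all 6 differences were positive (median 1.49, all tested genes 0.06), as were 58.3% of all tested genes. In IL-10-Fc against aCSF1R all 6 were positive too (median 1.37, all tested genes 0.11), as were 66.6% of all tested genes. Ranges were apart for 4 of the 6 receptors in the former (4.33% of all tested genes were higher without overlap) and for 6 of 6 in the latter (5.90%). All 3 of these directions held for each receptor under the other scalings, and Lilra6 and Pirb turned above 0 in aCSF1R against control with sample weights and with a replicate block. Under the library set term and the median-of-ratios scaling the median of all genes in aCSF1R against control moved from 0.24 to 0.01 and 0.03, and the medians of the receptors were then -1.38 and -1.60.

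None of the 6 receptors was called in BF10 against control, in IL-10-Fc against control or in BF10 against IL-10-Fc by limma, where at most 1 gene of all tested was called (0%, 0.00645% lower and 0%). At an unadjusted p below 0.05 there was 1 receptor, Lilra5, in each of the first 2 and 0 in the last. Among the 15504 tested genes the numbers at that threshold were 234, 224 and 42 in the same order. The confidence intervals were wide for Pirb, -0.62 to 2.54 in BF10 against control, and for Lilra6, -0.35 to 2.20. For Lilrb4a the interval was narrower, -0.54 to 0.70. The signs of these small differences changed with the scaling for Lilrb4a, Lilr4b and Pilra. In BF10 against control the median of the receptors was 0.20, against 0.32 for all tested genes. With the median-of-ratios scaling these were -0.17 and 0.02. In IL-10-Fc against control the medians were 0.02 and 0.35, and -0.41 and 0.003 with that scaling.

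Setting each receptor against Ptprc (CD45), which all leukocytes carry, separated the members. Ptprc itself was 15.0 to 16.7 TPM in aCSF1R and 29.7 to 72.1 TPM in the other libraries. The ratio of Pilra to Ptprc was 0.190 to 0.297 in aCSF1R, 0.558 to 0.681 in control, 0.476 to 0.724 in IL-10-Fc and 0.560 to 0.672 in BF10, so aCSF1R remained below the rest. The ratio of Lilra5 was 0 to 0.0175 in aCSF1R, 0.0511 to 0.113 in control, 0.0157 to 0.0665 in IL-10-Fc and 0.0054 to 0.0637 in BF10, so aCSF1R lay apart from control but overlapped the other 2 groups. For Lilrb4a it was 3.64 to 6.52 in aCSF1R and 4.03 to 6.05 in control, for Lilr4b 2.30 to 5.63 and 3.04 to 4.70, and for Pirb 0.112 to 0.652 and 0.202 to 0.527, all overlapping. A low ratio in aCSF1R was not particular to Pilra. The ratio of Lair1 was 0.10 to 0.13 in aCSF1R and 0.53 to 0.59 in control, and that of Fcer1g 2.86 to 3.26 and 5.66 to 7.10. For Tyrobp it was 3.76 to 8.04 and 10.4 to 14.7, and for all of these genes aCSF1R lay below the other groups. These ratios are descriptions without a test.

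**Figure D3:**
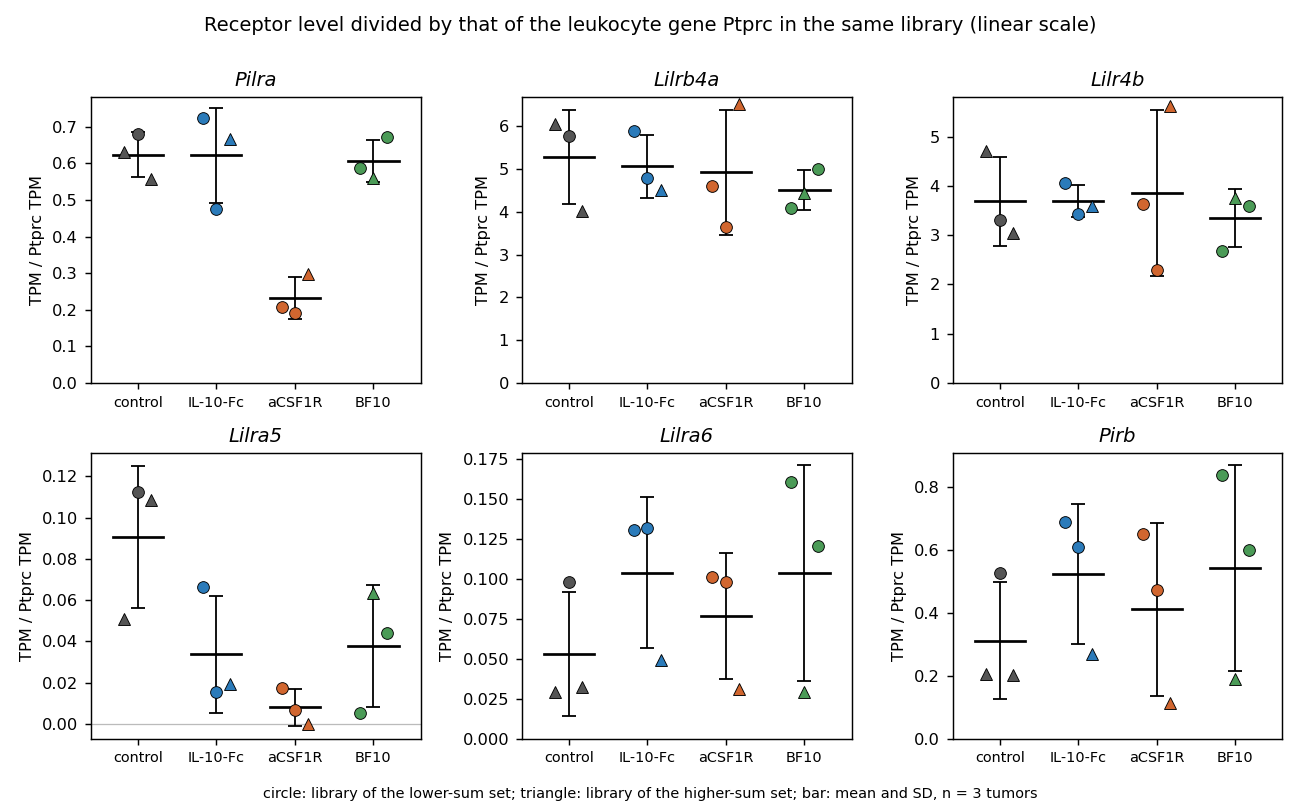
TPM of each receptor divided by the TPM of Ptprc in the same library (vertical axis, linear) by treatment group, with mean and SD over 3 tumors. Pilra per Ptprc is lowest in the 3 aCSF1R libraries without overlap, while the ratios of Lilrb4a, Lilr4b, Lilra6 and Pirb in aCSF1R lie within or across those of control.

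The genes with the most similar pattern differed between the receptors. Over the 12 libraries the nearest to Pilra were Lpxn (r = 0.99), the adaptor Fcer1g (0.99) and the receptor Cd300c2 (0.98). The nearest to Lilrb4a were the Toll-like receptor Tlr13 (0.98), the chemokine Pf4 (0.97) and Lilr4b (0.97), and to Lilr4b they were the chemokine receptor Ccr1 (0.98), Lilrb4a and Plek (0.95). Lilra5 was nearest to Kynu (0.96), a kynurenine pathway enzyme, to the chemokine Ccl24 (0.95) and to the lectin Mgl2 (0.90). Pirb was nearest to Gm15922 (0.99), a copy in its own cluster, the kinase Fgr (0.99) and Pde1b (0.99), and Lilra6 to Gm15448, Fgr and Gm15931 (all 0.98). Among the members r was 0.965 between Lilrb4a and Pilra, 0.62 between Pirb and Pilra and -0.04 between Lilra5 and Lilra6. With the mean of each library set removed, Pirb and Pilra reached 0.92, and Lilra6 and Lilr4b went from 0.39 to 0.88. Every pair among Pilra, Lilrb4a, Lilr4b, Pirb and Lilra6 then had r of 0.88 to 0.99. Lilra5 had 0.18 to 0.59 with them. The nearest genes named above are those without that removal, and they changed in part under it.

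The adaptors of the activating receptors moved in the same comparisons as Pilra. Fcer1g, the Fc receptor gamma chain, was 221 to 255 TPM in control and 43.8 to 54.5 TPM in aCSF1R, with a log2 difference of -2.31 (SE 0.22, adjusted p = 0.000685). Tyrobp, or DAP12, was 323 to 640 and 56.5 to 123 TPM, with a difference of -2.60 (SE 0.38, adjusted p = 0.009053). Of the 9 signalling partners 8 were below 0 and these 2 were called lower, with a median of -0.66, against 26.4% of all tested genes below 0 and 0.568% called lower. With the library set term Inpp5d was among those called lower (adjusted p = 0.008132), and the median was -1.16. Both were called higher in IL-10-Fc as well as BF10, each against aCSF1R. The phosphatases Ptpn6 (-0.41, adjusted p = 0.8935), Ptpn11 (0.57, adjusted p = 0.8935) and Inpp5d (-0.85, adjusted p = 0.8935), which the inhibitory receptors recruit, were not called without that term.

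Of the related receptors, 20 were tested, and 19 of them were below 0 in aCSF1R against control (median -0.88) and 5 called lower, where 26.4% of all tested genes were below 0 and 0.568% called lower. With the library set term 8 were called lower, against 1.93% of all tested genes, with Pilrb2, Trem1 (adjusted p = 0.01992) and Trem2 (adjusted p = 0.0005524) in addition. The 5 were the collagen receptor Lair1 (mean TPM 11.7-fold lower, adjusted p = 0.0002116), the signal regulatory proteins Sirpb1b (-2.53, adjusted p = 0.005957), Sirpb1a (-2.08, adjusted p = 0.03135) and Sirpb1c (-2.05, adjusted p = 0.02767), and Cd300c2 (-2.27, adjusted p = 0.003661). Lair1, which is inhibitory and lies in the leukocyte receptor region with the PIR genes, had 18.4 to 23.9 TPM in control and 1.53 to 2.19 TPM in aCSF1R. In BF10 against aCSF1R all 20 were above 0 (median 1.60), as were 58.3% of all tested genes. Of the 20, 7 were called, against 0.735% of all tested genes, and 12 with the library set term, against 2.77%. The 7 were Lair1, Cd300c2 and the 3 Sirpb1 genes along with Trem2 (2.73, adjusted p = 0.02703), a lipid receptor of macrophages, and Oscar (2.45, adjusted p = 0.02754), an activating collagen receptor. In IL-10-Fc against aCSF1R 5 were called, Lair1, Trem2, Oscar, Cd300c2 and Sirpb1b, against 0.542% of all tested genes. With the library set term 10 were called there, against 2.12%.

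**Figure D4:**
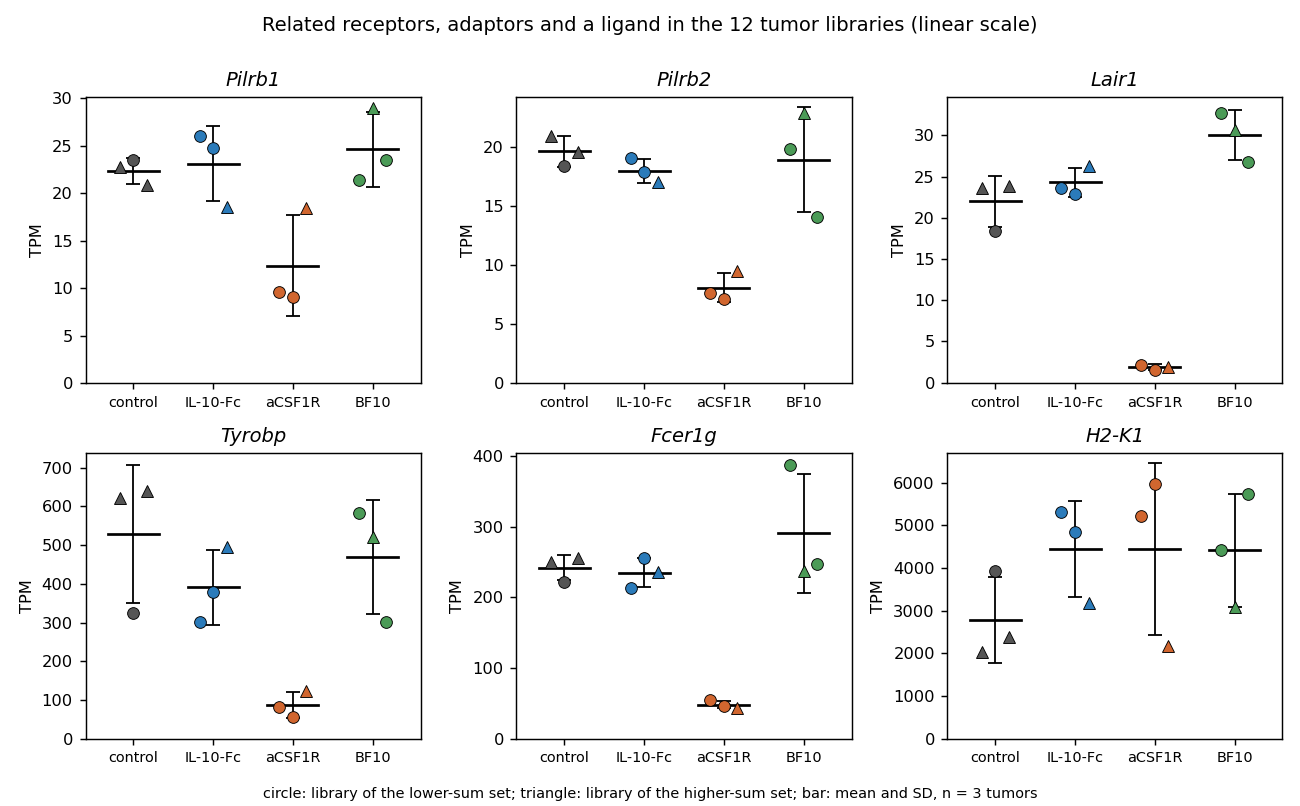
TPM (vertical axis, linear) of the receptors Pilrb1, Pilrb2 and Lair1, the adaptors Tyrobp and Fcer1g and the MHC class I ligand gene H2-K1 in each library by group, with mean and SD over 3 tumors. Lair1, Tyrobp and Fcer1g are lowest in aCSF1R without overlap, with Fcer1g at 43.8 to 54.5 TPM there, whereas H2-K1 overlaps between all groups.

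Ligands of these receptors were measured in the same tumors. None of the 9 tested ligand genes was called in any comparison. Mag and Omg were under the filter and not tested. Mag had 0 to 0.246 TPM in aCSF1R, 0.898 to 0.909 in control, 0.792 to 1.05 in IL-10-Fc and 0.892 to 1.31 in BF10, all low levels. Omg had 0.0813 to 0.361 TPM in aCSF1R, which overlapped the 0.191 to 0.222 TPM of control. The MHC class I genes H2-K1 and H2-D1, whose products Pirb binds, had log2 differences of 0.61 (SE 0.42, adjusted p = 0.8935) and 0.82 (SE 0.87, adjusted p = 0.8935) in aCSF1R against control. Beta-2 microglobulin (B2m) differed by -0.10 (SE 0.44, adjusted p = 0.9374), and Angptl2, another Pirb ligand, by 1.01 (SE 0.94, adjusted p = 0.8935). The median of the 9 was 0.20, near the 0.24 of all tested genes.

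Cell type markers moved with some of these results. All 12 macrophage markers were below 0 in aCSF1R against control, as were 26.4% of all tested genes, and none was at 0 in every library. Of the 12, 7 were called lower (0.568% of all tested genes), and 10 with the library set term (1.93%). Summed mast cell markers were higher in aCSF1R, 42.0 to 189 TPM against 8.96 to 25.1 in control, with 0 of 5 called. Summed neutrophil markers in aCSF1R, 927 to 4045 TPM, overlapped the 1068 to 2035 TPM of control. The part of these cells in the receptor levels was not tested.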

How the data were processed

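Bulk RNA of 12 tumors, 3 in each of 4 groups, was measured. Per the study's methods and the submitters' processing notes, the authors prepared stranded mRNA libraries from TRIzol extracts and used mm10 with the annotation GRCm38.101. The notes name STAR 2.7.5a, RSEM 1.3.3 and DESeq2 1.28.0 without their roles. The table used here holds FPKM as the authors deposited them, which are fragment numbers relative to transcript length and library size, with 2 decimals. The other 4 tables, with DESeq2 results per gene by the authors (mean, log2 fold change, standard error, p), were not used.

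Each FPKM value was divided by its library's sum and multiplied by 1000000 (TPM), so that libraries compare. Genes needed 1 TPM or more in 3 or more libraries, which left 15504 of the 34194 above 0 in any library. FPKM values are not counts, so limma 3.58.1 (R 4.3.3, eBayes with trend) was run on log2(TPM + 1) with 1 mean per group, 8 residual degrees of freedom and p-values adjusted over all tested genes. With 3 tumors a group an exact permutation test cannot go below p = 0.1. The procedure was tested on simulated data. These had no library set effect and no gene with a spread above the median, so they do not stand for the spread of these libraries. The sources do not say more of how far the tumors of a group were separate in housing or litter, so p-values measure the spread between these tumors. Positions come from GENCODE vM21 (GRCm38) and promoters from RefSeq (GRCm38.p6), cut to 250 bases before the start. Windows of 75 bases were compared across all transcripts, and depth was estimated from the steps between low FPKM values of genes with a single transcript. That estimate was confined to a preset range of depths. It used transcript lengths of GENCODE vM21, not of the authors' annotation.

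Named genes were the 6 receptors, listed related receptors (24 of 30 in the table, 20 tested), signalling partners (9 of 9 tested) and ligands (11 of 12 in the table, 9 tested), the marker lists, and the 3 genes nearest to each receptor by Pearson's r. The members and lists were chosen with earlier results of these data known. Alternatives were a pseudocount of 0.1, unrescaled FPKM, median-of-ratios scaling, no filter, a library set term, only the groups compared, sample weights, no minimum fold, a replicate block, each library left out and values within each library set.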

Additional observations from a re-analysis of the deposited data

Results flagged for a closer look

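The non-additive contrast of Pilra (the BF10 mean less those of IL-10-Fc and aCSF1R, with the control mean added) is given here because it passed the test of whether the effect of the antibody differs between tumors given it alone and joined to IL-10. Its value was 2.71 on the log2(TPM + 1) scale (adjusted p = 0.03008 in limma). The call was kept in 2 of the 12 fits that left out 1 library (adjusted p up to 0.1279) and was lost with the median-of-ratios scaling (adjusted p = 0.1628) and with the replicate block (adjusted p = 0.2541), so it depends on these choices. Pilra was 2.85 to 4.55 TPM in the 3 aCSF1R libraries and 21.2 to 42.3 TPM in the other 9. Macrophage markers moved in the same way, with a summed TPM of 85.0 to 274 in aCSF1R and of 1510 to 2303 in the other groups, and their part in the Pilra level was not tested.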

How the results depend on the processing

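For the 6 receptors in 7 contrasts, 826 of 966 values under an alternative kept their direction and their side of the threshold (or moved by less than 1 SD where there was no test), 53 changed sign, 35 lost a call, 31 gained one and 21 moved. The changes of sign concerned differences that were not called. With sample weights, whose fit did not fully converge, Lilra6 was 0.11 and Pirb 0.014 in aCSF1R against control. In BF10 against control Lilrb4a was then -0.027 and Lilr4b -0.12, and in IL-10-Fc against control they were 0.070 and -0.011. In BF10 against IL-10-Fc the weights gave -0.17 for Lilra6, -0.10 for Lilrb4a, -0.10 for Lilr4b and -0.082 for Pirb, and in the non-additive contrast -0.28 for Lilra6 and -0.10 for Pirb. With the replicate block, which leaves 2 residual degrees of freedom, Lilra6 was 0.46 and Pirb 0.42 in aCSF1R against control, Lilrb4a -0.011 and Pilra -0.050 in BF10 against control, Lilr4b -0.044 in IL-10-Fc against control, Lilra6 -0.055 and Pilra -0.039 in BF10 against IL-10-Fc, and Lilra6 -0.52 and Pirb -0.31 in the non-additive contrast. The block also lost the 3 calls of Pilra, at -2.57 in aCSF1R against control (adjusted p = 0.05301), 2.56 in IL-10-Fc against aCSF1R (0.2281) and 2.52 in BF10 against aCSF1R (0.1864). Whether the numbers pair the samples cannot be told from these values. For same-numbered libraries r of the deviations was -0.66 to 0.42 over 7 pairs, most of which cross the library sets. Libraries of different sets with unlike numbers also deviated in opposite directions, as BF10 replicate 6 and aCSF1R replicate 4 did (-0.68). Within a set r was 0.42 for replicates 4 of aCSF1R and IL-10-Fc and 0.35 for replicates 7 of control and IL-10-Fc. Pairs within a set with unlike numbers had r from 0.083 (BF10 replicate 7 and IL-10-Fc replicate 4) to 0.78 (BF10 replicate 6 and aCSF1R replicate 8). Both same-numbered values lay within that range and did not stand out. Without rescaling, Lilrb4a was -0.11 and Lilr4b -0.027 in BF10 against control and Lilr4b -0.17 in IL-10-Fc against control. With median-of-ratios scaling Lilrb4a was -0.29, Lilr4b -0.21 and Pilra -0.12 in BF10 against control and Lilr4b -0.39 in IL-10-Fc against control. With the library set term Lilrb4a was 0.015 and Pilra 0.051 in IL-10-Fc against control. The cause of these changes was not tested.

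Leaving out 1 library at a time, the differences that changed sign ranged in BF10 against control from -0.15 to 0.25 for Lilrb4a, -0.062 to 0.41 for Lilr4b and -0.020 to 0.42 for Pilra. In IL-10-Fc against control they ranged from -0.12 to 0.14 for Lilrb4a, -0.18 to 0.29 for Lilr4b and -0.15 to 0.081 for Pilra. In BF10 against IL-10-Fc they ranged from -0.14 to 0.54 for Lilra5, -0.47 to 0.79 for Lilra6, -0.12 to 0.24 for Lilrb4a, -0.024 to 0.23 for Lilr4b, -0.50 to 0.91 for Pirb and -0.020 to 0.42 for Pilra, and in the non-additive contrast from -0.077 to 1.19 for Lilra6.

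The number of genes changed was 88 in aCSF1R against control, 0 in BF10 against control, 1 in IL-10-Fc against control, 114 in BF10 against aCSF1R, 84 in IL-10-Fc against aCSF1R, 0 in BF10 against IL-10-Fc and 45 in the non-additive contrast (limma). At an unadjusted p below 0.05 the comparisons with 0 had 234 and 42. In that order it was 312, 1, 4, 437, 330, 0 and 188 with the library set term, 9898, 8967, 9274, 465, 1970, 37 and 9161 with sample weights, 0, 1, 0, 1, 1, 1 and 0 with the replicate block and 4, 0, 0, 0, 12 and 1 with only the groups compared (the last contrast uses all groups). The median-of-ratios scaling gave 136 in aCSF1R against control and 1 in BF10 against IL-10-Fc. IL-10-Fc against control had 0 with a pseudocount of 0.1 or without rescaling. Without the filter it had 2, BF10 against IL-10-Fc 1 and the non-additive contrast 27. Within the lower-sum libraries BF10 against IL-10-Fc had 1. Leaving out 1 library gave 55 to 91 in aCSF1R against control (55 without aCSF1R replicate 6 and 58 without control replicate 4), 0 to 1 in IL-10-Fc against control, 54 to 108 in BF10 against aCSF1R (54 and 72 without BF10 replicates 3 and 7, 61 without aCSF1R replicate 6), 24 to 92 in IL-10-Fc against aCSF1R (25 without aCSF1R replicate 6 and 32, 24 and 28 without IL-10-Fc replicates 2, 4 and 7), 0 to 1 in BF10 against IL-10-Fc and 10 to 52 in the non-additive contrast (23 or fewer without any 1 library other than aCSF1R replicate 8 or control replicate 5). Depth limits Lilra5 in aCSF1R, where it rested on about 0.0 to 12.9 reads.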
